A study of Mus musculus with 61 samples.

Results

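The genes described here are the cytosolic ribosomal protein genes of the adult mouse brain: every gene named through the RefSeq accession of its array probe whose symbol is Rpl or Rps followed by a digit, together with Rpsa. Of 91 such genes, the 10 Rps6k kinase genes were left out, as were pseudogenes, so that 81 members remained of 16358 genes named in this way. They comprise 43 genes of the large subunit, 31 of the small subunit and 7 others, namely the paralogs Rpl3l, Rpl7l1, Rpl22l1, Rpl36al, Rpl39l and Rps27l and the gene Rps19bp1, which the symbol rule takes in although its product binds a ribosomal protein and is not one. A gene was represented by the probe with the highest mean signal. Rpl10l and Rps4l were not measured by a named probe.

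The samples were 61 fractions of the brains of 6 untreated male C57BL/6J mice aged 8 weeks, with no transgene or drug in any group and RNAlater perfused before the brains were taken. Each mouse gave 1 series of fractions that covered the whole brain, and each fraction pooled 200 sections of 5 µm, 1 mm in all, hybridised to 1 array. Series S (9 fractions) and So (10) were sagittal from left to right, C (13) and Co (16) coronal from posterior to anterior, and H (6) and Ho (7) horizontal from dorsal to ventral, where "o" marks a slightly oblique cutting angle. The labels number the S fractions from 2 to 10. They are called S1 to S9 here, as the study counts them, and an S fraction with the label number 1 was not analysed here, so S1 may not be the outermost fraction of its side. With 1 mouse per series, the mouse and its cutting angle cannot be told apart, and a fraction mixes all the regions and cell types that its plane crosses, so that fewer cells of a type and less RNA per cell cannot be told apart.

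A ribosome joins a large and a small subunit, each built of ribosomal RNA and a set of small basic proteins that are made in nearly equal amounts. The mRNAs of these proteins are among the most abundant of any cell. They begin with a short stretch of pyrimidines, the 5′ terminal oligopyrimidine (TOP) motif, through which the mTOR pathway sets their translation. Growing cells are known to be rich in them.

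The start regions of 4 members are shown because all 4 carry such a stretch while their expression densities differ. Rpl28 and Rps6 were among the members with the largest F over matched fractions, and Rpl22l1 had the smallest. Rpl31 differed most between dorsal and ventral fractions among the members measured on all arrays. The windows run from 30 bases before to 20 bases after the RefSeq start on the strand named, in build GRCm38.p6, and capitals mark the run of C and T nearest the start. They lie at chr4:86857348-86857397 (minus strand) for Rps6, chr7:4792935-4792984 (plus) for Rpl28, chr1:39367821-39367870 (plus) for Rpl31 and chr3:28805478-28805527 (plus) for Rpl22l1.
Rps6: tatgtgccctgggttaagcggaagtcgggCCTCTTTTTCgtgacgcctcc
Rpl28: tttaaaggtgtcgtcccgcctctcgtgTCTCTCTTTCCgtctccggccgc
Rpl31: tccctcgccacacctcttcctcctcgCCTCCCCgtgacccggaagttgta
Rpl22l1: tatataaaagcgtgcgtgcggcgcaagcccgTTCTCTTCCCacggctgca
The runs are 10, 11, 7 and 10 bases long. A run of 6 or more C or T that held a C near the start and took in the start, or began at most 5 bases after it, was found on the coding strand in 25 of the 62 members with a RefSeq promoter window (40.3%), against 13.8% of all 27025 genes with a window. The ETS core CCGGAAG, on either strand and within 250 bases before to 50 after the start, was also found in 25 of 62 members (40.3%), against 9.93% of all genes. Its reverse complement and that of the YY1 motif hold runs of C and T, so matches on the opposite strand can overlap the pyrimidine run. The YY1 motif AAGATGGC was found in 6 members (9.68%, all genes 3.19%) and TATAAA in 6 (9.68%, all genes 15.7%). These are matches of letters in windows that rest on the annotated start.

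Values are log2 signals minus the 75th percentile of the array, and profiles are given relative to the mean of each gene over its own series, so that 0 is the average of that mouse. In all, 80 of the 81 members were well above background on all 61 arrays. The exception was Rpl39l, a paralog of Rpl39 known from the testis, which was well above background on 20 arrays, so that its differences are bounds at best and are given without direction. Across the arrays the 75th percentile lay between 737 and 1919 signal units (median 1205), and 57.9% to 73.1% of probes were well above background. Outlier flags removed 17 member values, of which Rpl13a and Rpl3 lost 5 each. The arrays came from 16 slides and 5 scan days, and the mouse is largely tied to both.

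The members moved together, and the common movement was highest at the ends of the series. In the oblique sagittal mouse the median of the members was 0.62 above the series mean in So1, where 81 of 81 members were above it, and 0.42 in So10, while the 8 fractions between ranged from -0.20 (So3) to -0.02 (So2). In the coronal mice the medians were 0.33 in C1 and 0.55 in C13 against -0.21 to 0.24 between them, and 0.37 in Co1 and 0.45 in Co16 against -0.28 to 0.22. In the horizontal mice they were 0.11 in H1 and 0.28 in H6 against -0.17 to 0.01, and 0.75 in Ho1 and 0.38 in Ho7 against -0.27 to -0.14. In these 5 mice every inner fraction lay below both ends. Series S was the exception, at -0.09 in S1 and 0.08 in S9 against -0.03 to 0.05 in its 7 inner fractions, where S1 is the fraction labelled 2.

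**Figure D1:**
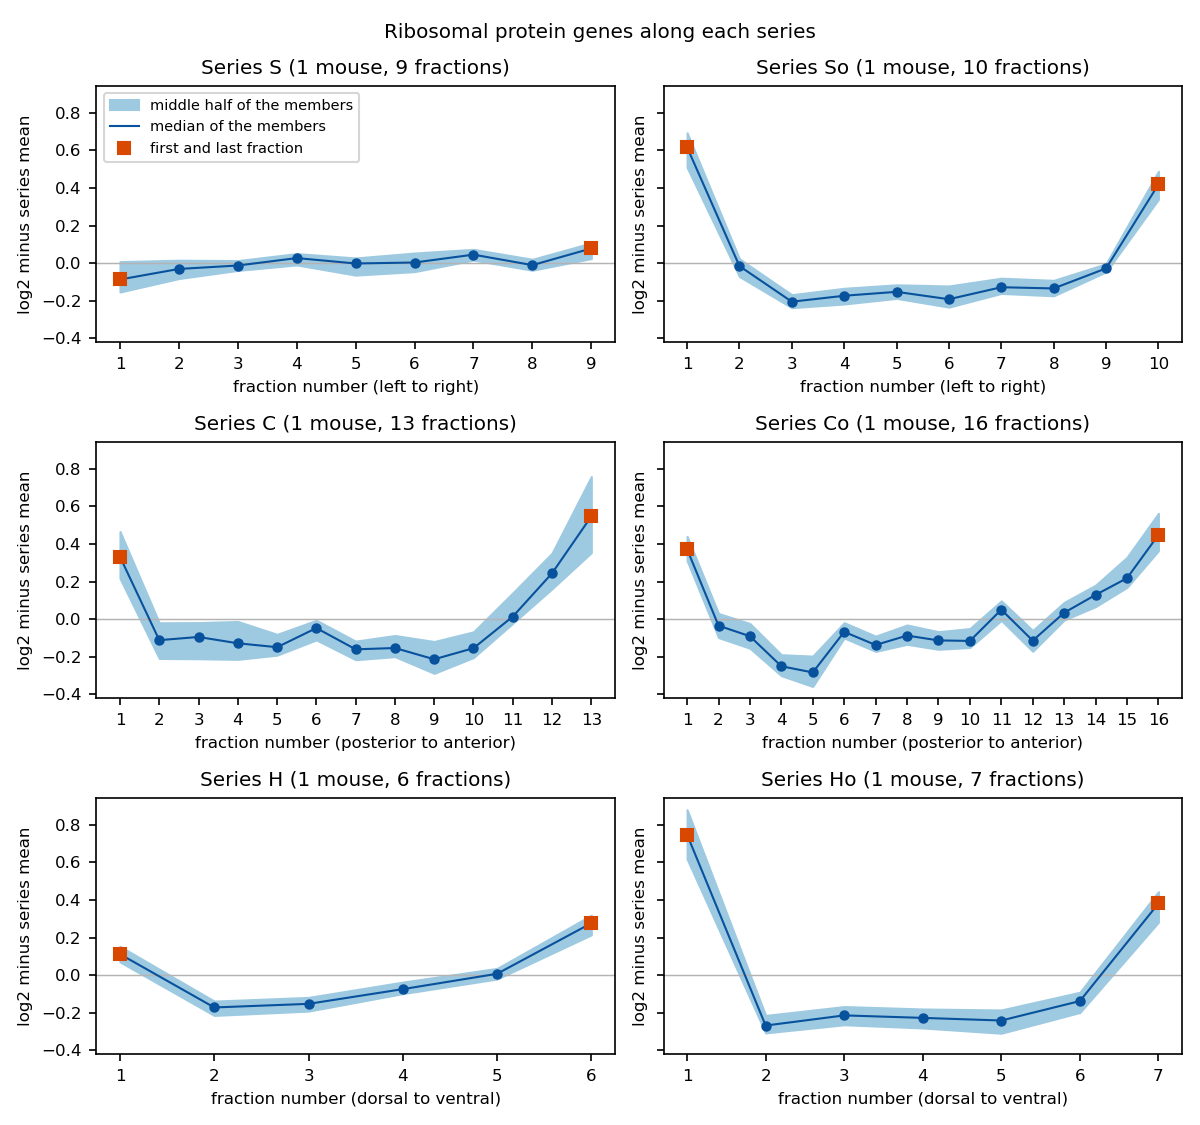
Median of the 81 members (line, points) with their interquartile range (band) in each fraction of the 6 series, as log2 minus the mean of the series, against fraction number; squares mark the first and last fraction. The ends stand highest in every series but S, from 0.11 in H1 to 0.75 in Ho1.

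The comparison of the 12 end fractions with the 49 inner ones was chosen after these levels were seen, and its counts describe the arrays that raised it. With the mouse in the model, 79 of 81 members were higher in the end fractions at an adjusted p under 0.05 and 0 were lower (limma), where 15.3% of all probes were higher and 12.8% lower. The median difference of the members was 0.45 (range 0.11 to 0.68), beside 0.02 over all probes. All 43 large subunit genes and all 31 small subunit genes were among the higher ones, with medians of 0.45 and 0.48. The 2 members not called were Rpl3l, at 0.14 ± 0.10 (SE, limma adjusted p = 0.315), and Rpl39l. Entering the slide as a fixed block gave 80 members higher, and leaving out any 1 mouse gave 77 to 79, where the shares of all probes are not given here.

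Rpl22, an RNA-binding protein of the large subunit, had the largest end difference. Its values in the 12 end fractions ran from -0.16 (S1) through a median of 0.54 to 1.08 (Ho1), and in the 49 inner fractions from -0.42 (Ho2) through -0.16 to 0.39 (C12). The ranges overlapped, chiefly through S1 and S9 at 0.14. The difference was 0.68 ± 0.07 (SE, limma adjusted p = 6.17e-10). A dimmer probe of the gene gave 0.22, so the size for Rpl22 depends on the probe.

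Rpl39, an X-linked gene for one of the smallest ribosomal proteins, followed at 0.62 ± 0.08 (SE, limma adjusted p = 1.12e-07). Its end values ran from -0.04 (Co1) through a median of 0.44 to 1.15 (Ho1), with inner values from -0.95 (Ho5) through -0.13 to 0.48 (Co15). Rpl13a, known for a role in silencing inflammatory mRNAs, differed by 0.61 ± 0.06 with values in 10 end and 46 inner fractions. At the other extreme Rpl7l1, a nucleolar relative of Rpl7, differed by 0.11 ± 0.04 (limma adjusted p = 0.0117), its end values lying between -0.08 (C13) and 0.25 (Co16) and its inner values between -0.23 and 0.23. Rpl21 (0.20 ± 0.05), Rps19bp1 (0.23 ± 0.06) and Rpl27a (0.27 ± 0.04) were also low in this order.

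The genes for the 5S ribonucleoprotein, Rpl5 and Rpl11, whose free proteins bind Mdm2, were 0.34 ± 0.05 and 0.38 ± 0.06 higher in the end fractions. Rps6, the substrate of the S6 kinases, was 0.28 ± 0.06 higher (limma adjusted p = 0.000212). Rpsa, whose product is also known as the laminin receptor precursor, and Rps19, mutated in Diamond-Blackfan anaemia, were 0.37 ± 0.07 and 0.41 ± 0.07 higher. Among the X-linked members Rpl10 and Rps4x were 0.43 ± 0.06 and 0.40 ± 0.05 higher, all past the threshold. Rpl3, which lies at the peptidyl transferase centre, was 0.34 ± 0.05 higher, with 5 arrays lacking its value.

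The paralogs are given beside their partners. Rps27 and its p53-responsive paralog Rps27l were 0.59 ± 0.06 and 0.54 ± 0.10 higher in the end fractions, and Rpl22l1 was 0.53 ± 0.07 higher beside its partner Rpl22. Rpl36al was 0.40 ± 0.05 higher. Rpl3l, the paralog of Rpl3 known from muscle, did not pass the test, with end values from -0.61 (So10) to 1.01 (Co1).

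The end fractions were then read mouse by mouse. The median end difference of the members was 0.53 in C, 0.47 in Co, 0.29 in H, 0.78 in Ho and 0.64 in So, and -0.01 in S. Between the sagittal mice the end difference was larger in So than in S for 41 members and smaller for 0 (limma interaction, adjusted p under 0.05), where 1.01% of all probes were larger and 0.246% smaller. This takes S1, labelled as fraction 2, for an end of its series. Between Co and C and between Ho and H, 0 members passed that test, with 0.873% and 0.00547% of all probes called either way. At an unadjusted p under 0.05 these were 8 and 66 members, the 66 all larger in Ho. The shares of all probes at that unadjusted threshold are not given here, so these counts have no background beside them. Each mouse contributes 2 end fractions.

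Several other measures moved with the ends. The 75th percentile was below that of every inner fraction at both ends of So (938 and 1027 against 1189 to 1434), Co (1340 and 1435 against 1582 to 1919) and Ho (737 and 951 against 1028 to 1205). In C this held for C13 (921) and not for C1 (1157), with inner fractions at 1134 to 1381. In H both ends (1094 and 1155) lay within the inner range of 1087 to 1166, and in S the ends stood at 1088 and 931 against 920 to 1066. Over the 61 fractions, centred by series, the correlation of the member median with the log2 of that percentile was -0.81, the points of a series sharing a mouse and the percentile entering both sides. All 4 measured microglial markers were higher in the end fractions, their mean at 0.11 to 0.92 there and -1.09 to 0.54 inside, and their summed level at 8.59 to 17.1 times the percentile against 3.90 to 11.8. Both measured blood genes were higher (mean -0.52 to 1.55 against -1.50 to 1.04, sum 2.88 to 11.1 against 1.44 to 7.29), as were 3 of 4 meningeal fibroblast genes (mean -0.43 to 1.70 against -1.16 to 1.03, sum 9.12 to 66.1 against 5.21 to 29.3). No marker of the 3 lists that was measured was below background on any array. Of 4 endothelial genes 3 were higher (mean -0.10 to 0.76 against -0.33 to 0.53, sum 20.2 to 53.8 against 17.1 to 40.9), as were 3 of 5 astrocyte genes (mean -0.42 to 0.70 against -0.80 to 0.76). Of 7 oligodendrocyte genes 6 were lower, and of 4 measured choroid plexus genes 3. The part of these measures in the result was not tested.

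**Figure D2:**
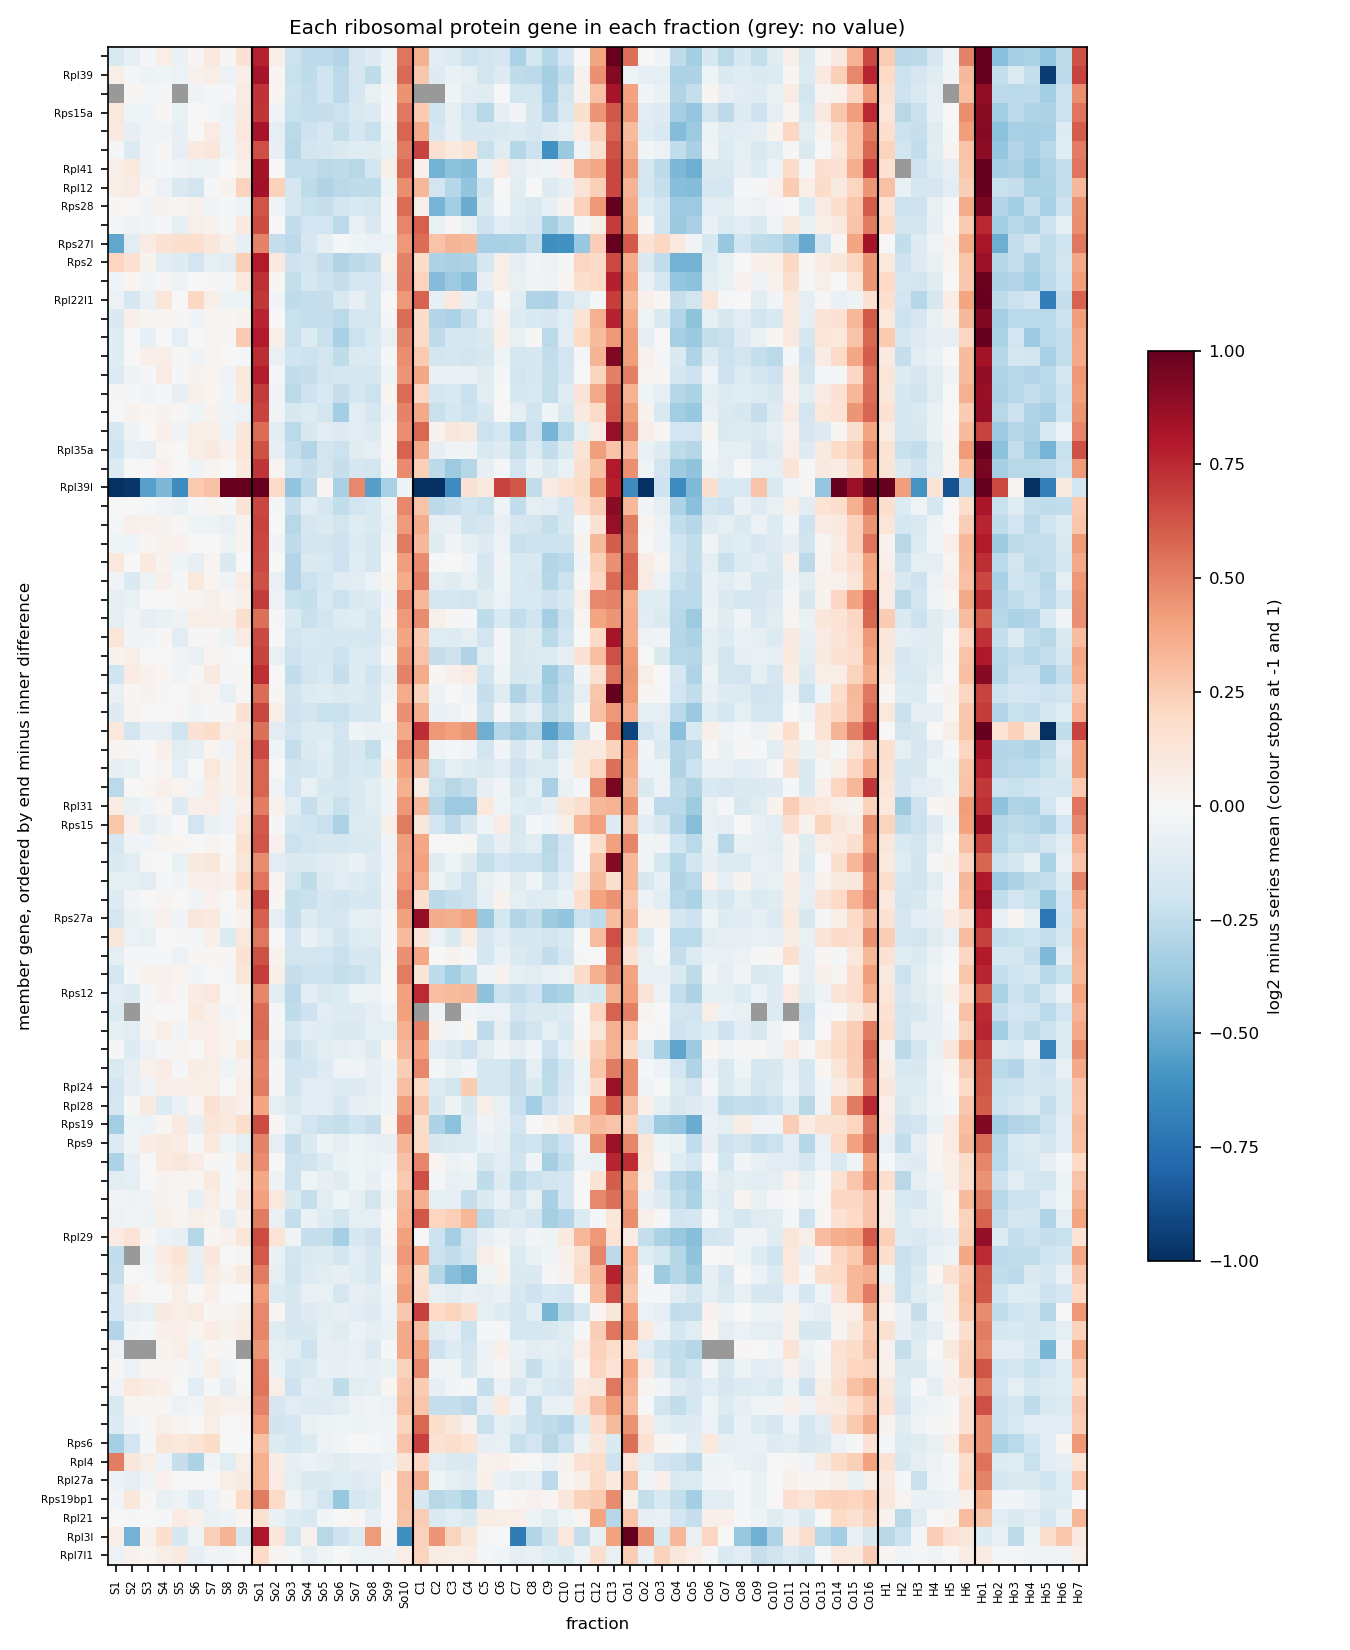
Each of the 81 members (rows, ordered by end minus inner difference) in each of the 61 fractions (columns, series separated by lines), as log2 minus the series mean with colours that stop at -1 and 1. Symbols mark the members named by rule. The columns So1, C13, Co16 and Ho1 are raised in nearly all rows, and the row of Rpl39l is the noisiest.

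The question of whether the members vary in space was asked over 28 pairs of anatomically matched fractions of the 2 mice of a plane. The pairs use 56 arrays and leave out So1, Co1, Co13, Co16 and Ho1. They had been chosen by their correlation on these same arrays, and 4 of the 5 unpaired arrays are the raised end fractions. Over the pairs 48 of 81 members varied (limma F, adjusted p under 0.05), where 61.2% of all probes did, so the members were near the background. With the mouse as a replicate block, since the series of a pair come from different mice, 80 members varied, beside 81.0% of all probes, and the remaining member was Rpl30. Without the end fractions 19 members varied, and 78 with the block, where the shares of all probes are not given here.

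The 8 largest F values belonged to Rpl21, Rps15, Rpl28, Rps2, Rps15a, Rps9, Rpl29 and Rps6. Rpl21 led with F = 8.86 (limma adjusted p = 3.07e-07), although its values only ran from -0.28 (C13) through a median of -0.02 to 0.39 (C12). The neighbours C12 and C13 were thus its highest and lowest fractions. Rps15, a small subunit protein, ran from -0.43 (Co5) through -0.05 to 0.85 (Ho1), with F = 6.55 (limma adjusted p = 6.63e-06). Rps2, at the mRNA entry channel, ran from -0.47 (Co5) through -0.06 to 0.86 (Ho1). Many ribosomal protein genes have processed pseudogenes, and which copies a probe also binds was not analysed here.

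The 3 smallest F values were those of Rpl22l1 (0.37), Rpl39l (0.60) and Rpl24 (0.62). For Rpl22l1 and Rpl24 the pairs set apart 2 mice with different levels. With the mouse as a replicate block both varied (limma adjusted p = 0.0196 and 0.00633).

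At the rostral end, where the olfactory bulbs are, the members were higher than in the middle of the brain. The median of the members was 0.24 in C12, 0.55 in C13, 0.13 in Co14 and 0.22 in Co15, and from -0.21 (C9) through -0.11 to 0.05 (Co11) in the 14 fractions of pairs c5 to c11. The groups did not overlap. Of 81 members 56 were higher and 0 lower (limma, adjusted p under 0.05), where 18.4% of all probes were higher and 20.4% lower, and the median difference was 0.39 beside 0.02 over all probes. Of the large subunit 31 of 43 genes were higher, of the small subunit 23 of 31, and of the other members Rps27l and Rps19bp1. Without the end fractions, which takes out C13, 40 members were higher and 0 lower. With the slide as a fixed block 16 were higher, and with fractions paired by their own numbers 9. Own numbers set Co12 and Co13 beside C12 and C13 in place of Co14 and Co15, and so read other positions. The olfactory bulb mean was -0.31 in Co12 and 2.73 in Co13, against 4.48 in Co14 and 4.83 in Co15. The shares of all probes under these alternatives are not given here.

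Rps27l had the largest rostral difference. It stood at 0.25 in C12, 1.03 in C13, 0.02 in Co14 and 0.39 in Co15, and between -0.61 (C9) and -0.16 (Co6) in the middle fractions, with no overlap. The difference was 0.77 ± 0.14 (SE, limma adjusted p = 3.88e-05). Rpl39 was next, at 0.46, 0.92, 0.23 and 0.48 in the same order, above all middle fractions (-0.33 to 0.04), with a difference of 0.67 ± 0.16 (limma adjusted p = 0.000898).

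Rps9, at the mRNA entry of the small subunit, had the smallest adjusted p of the members in the rostral comparison. It stood at 0.47, 0.87, 0.20 and 0.41 in C12, C13, Co14 and Co15, a difference of 0.66 ± 0.07 (limma adjusted p = 1.16e-08). The gene was singled out after its values were seen.

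The smallest rostral differences were those of Rps6 and Rpl27a. Rps6 stood at 0.12 in C12, -0.15 in C13, -0.06 in Co14 and -0.02 in Co15, within its middle fractions of -0.27 (C9) to 0.10 (Co6) but for C12. Its difference was 0.09 ± 0.09 (limma adjusted p = 0.488). Rpl27a ranged from -0.07 (Co15) to 0.19 (C12) against -0.26 to 0.05, with a difference of 0.10 ± 0.06 (limma adjusted p = 0.231). Rps6, Rpl21, Rps15, Rpsa, Rpl4 and Rpl7l1 were the 6 members below their series mean in C13, while the other 75 were above it.

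The rostral fractions were marked by their tissue. All 6 olfactory bulb genes were higher there (median difference 6.06), as were 4 of 5 measured neuroblast and proliferation genes (3.03) and 4 of 5 astrocyte genes (0.73). Among the lower were 7 of 7 oligodendrocyte (-1.02), 5 of 5 striatal (-1.88), 4 of 5 forebrain excitatory (-1.26) and 4 of 5 Purkinje cell genes (-1.15). Of 7 cerebellar granule cell genes 4 were higher and 1 lower (0.34). Their mean was below the series mean in C12, C13, Co14 and Co15 (-1.09 to -0.76), so they are not read as that cell type here. Of the lists above, 2 of 4 microglial genes, 4 of 4 meningeal fibroblast genes and 2 of 2 blood genes were higher. The part of these cell types in the members' difference was not tested.

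**Figure D3:**
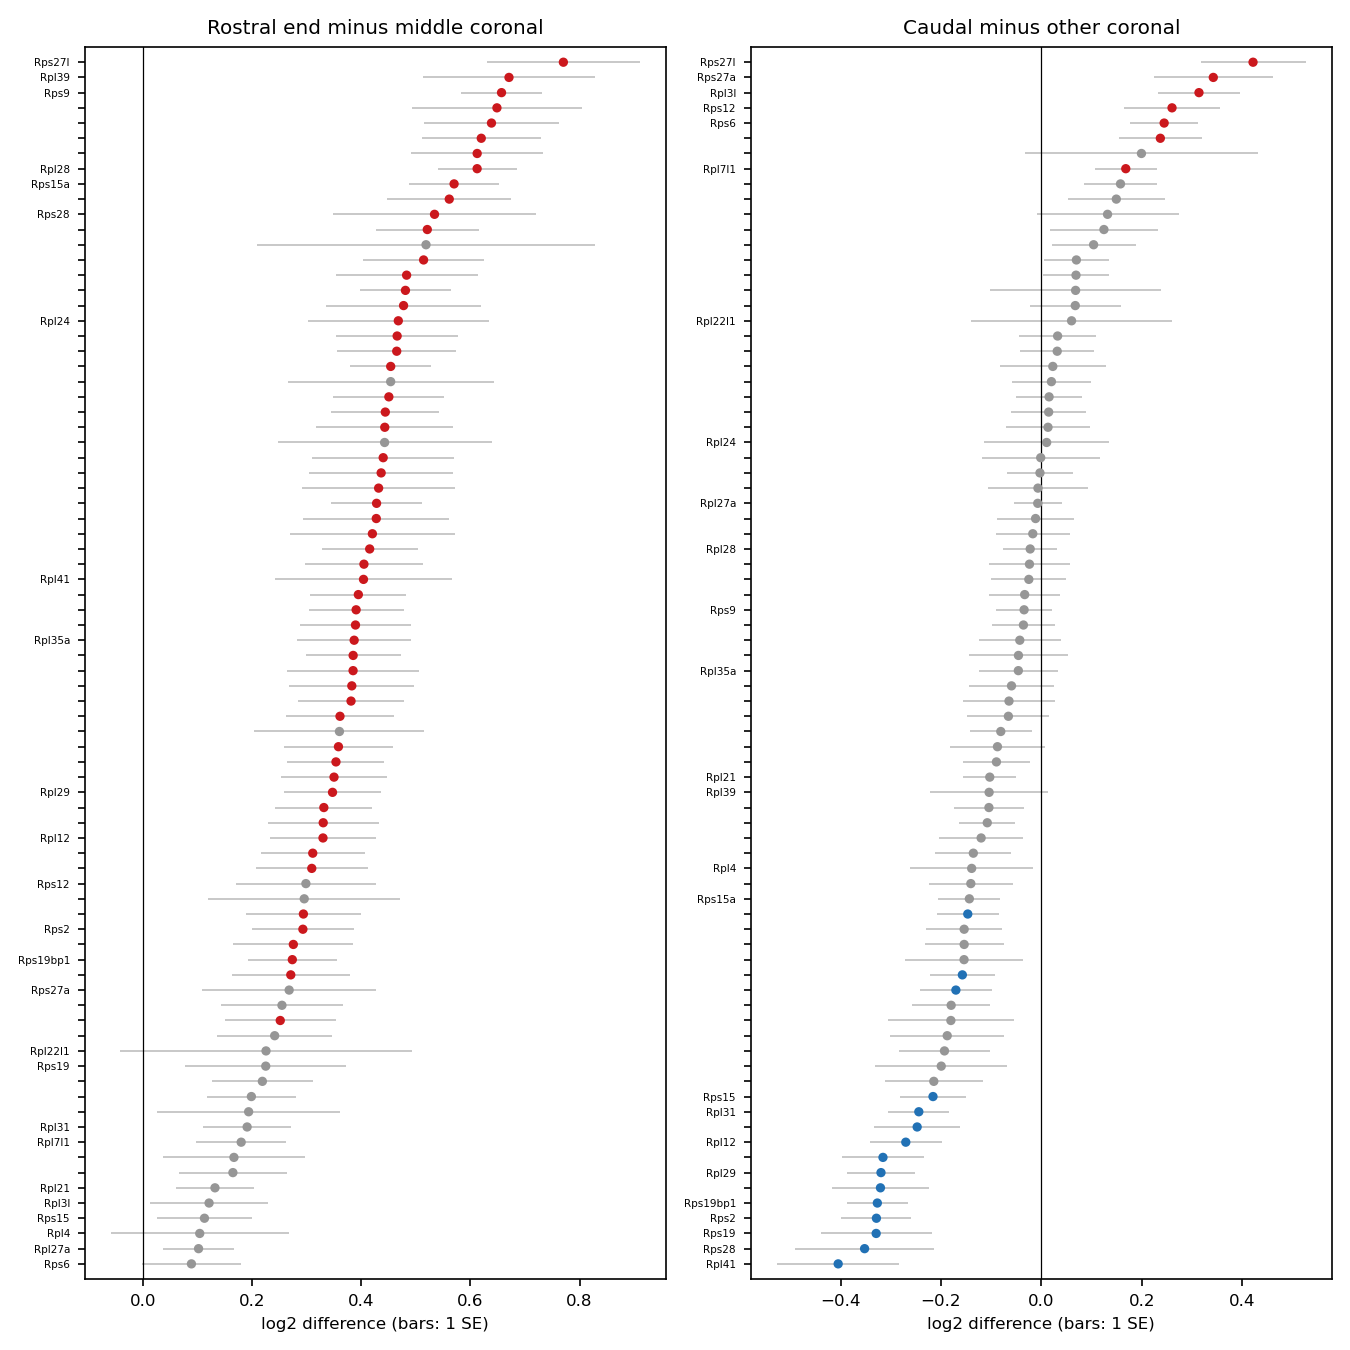
Rostral end minus middle (left) and caudal minus other coronal fractions (right) for the 80 members measured on all arrays, as log2 differences with bars of 1 SE; red and blue mark members higher and lower at an adjusted p under 0.05, and symbols those named by rule. On the left 56 members lie on the right of 0 in red, whereas on the right 7 are red and 15 blue.

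In the caudal fractions, which hold the cerebellum and hindbrain, some members were higher and others lower, neither more often than all probes. The median of the members ran from -0.28 (Co5) through -0.10 to 0.33 (C1) in the 8 fractions of pairs c1 to c4, and from -0.21 (C9) through -0.10 to 0.55 (C13) in the other 18, a full overlap. Of 81 members 7 (8.64%) were higher and 15 (18.5%) lower (limma, adjusted p under 0.05). Of all probes 31.2% were higher and 20.6% lower, so neither count exceeded the background. The median of all probes was itself shifted by 0.13, and that of the members was -0.05, or -0.18 relative to all probes. Scaled to the array median, or in the authors' normalized table, 2 members were higher and 39 lower. The shares of all probes under these scalings are not given here, so these counts have no background beside them. With the mouse as a replicate block 8 (9.88%) were higher and 27 (33.3%) lower, beside 38.4% and 24.8% of all probes.

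The higher members were Rps27l, Rps27a, Rpl3l, Rps12, Rps6, Rpl11 and Rpl7l1. Rps27l ranged from -0.03 (Co5) through 0.25 to 0.56 (C1) in the caudal fractions and had a median of -0.29 in the others, where the highest was C13 at 1.03. The difference was 0.42 ± 0.10 (SE, limma adjusted p = 0.00114), so that this gene was highest at both ends of the coronal axis and low between. Rps6 ranged from -0.11 (Co5) through 0.14 to 0.69 (C1) against -0.27 to 0.12 elsewhere, with a difference of 0.24 ± 0.07 (limma adjusted p = 0.00314). Under the median scaling and in the authors' table Rps27a, Rps12 and Rps6 did not pass.

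Rps27a, which is made as a fusion with ubiquitin, was high in the caudal fractions of 1 mouse. It stood at 0.88, 0.37, 0.36 and 0.40 in C1 to C4 and at 0.04, 0.04, -0.18 and -0.21 in Co2 to Co5. The groups of the 2 mice did not overlap, and C1 to C4 were hybridised on 1 slide that held no other array. The difference was 0.34 ± 0.12 (limma adjusted p = 0.0168), and 0.29 without C1, no longer past the threshold. Rps12 (0.26 ± 0.10, limma adjusted p = 0.0242) also lost its call without any of C1, C2, C3 or C4. With the slide as a fixed block 0 members passed in this comparison, and Rps27a, Rpl3l and Rps12 changed sign. Co2 to Co4 shared a slide with Co1 only. Co5 was thus the only paired caudal fraction on a slide with non-caudal ones (Co6 to Co8), and the block can decide little about position.

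The lower caudal members were led by Rpl41, Rps28, Rps19 and Rps2. Rpl41, the shortest ribosomal protein, ran from -0.49 (Co5) through -0.42 to 0.05 (C1) against -0.15 to 0.67 elsewhere, with a difference of -0.40 ± 0.12 (limma adjusted p = 0.00636). Rps2 stood at 0.19 in C1, between -0.32 and -0.31 in C2 to C4, and at -0.15, -0.25, -0.47 and -0.47 in Co2 to Co5, with a difference of -0.33 ± 0.07 (limma adjusted p = 0.000205). C1, the outermost fraction, was the highest caudal fraction of both genes. Rps28 (-0.35 ± 0.14) and Rps19 (-0.33 ± 0.11) passed with adjusted p = 0.0342 and 0.0132 in limma. Rps28 lost its call without any 1 of 11 arrays and Rps19 without Co2 or Co5.

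**Figure D4:**
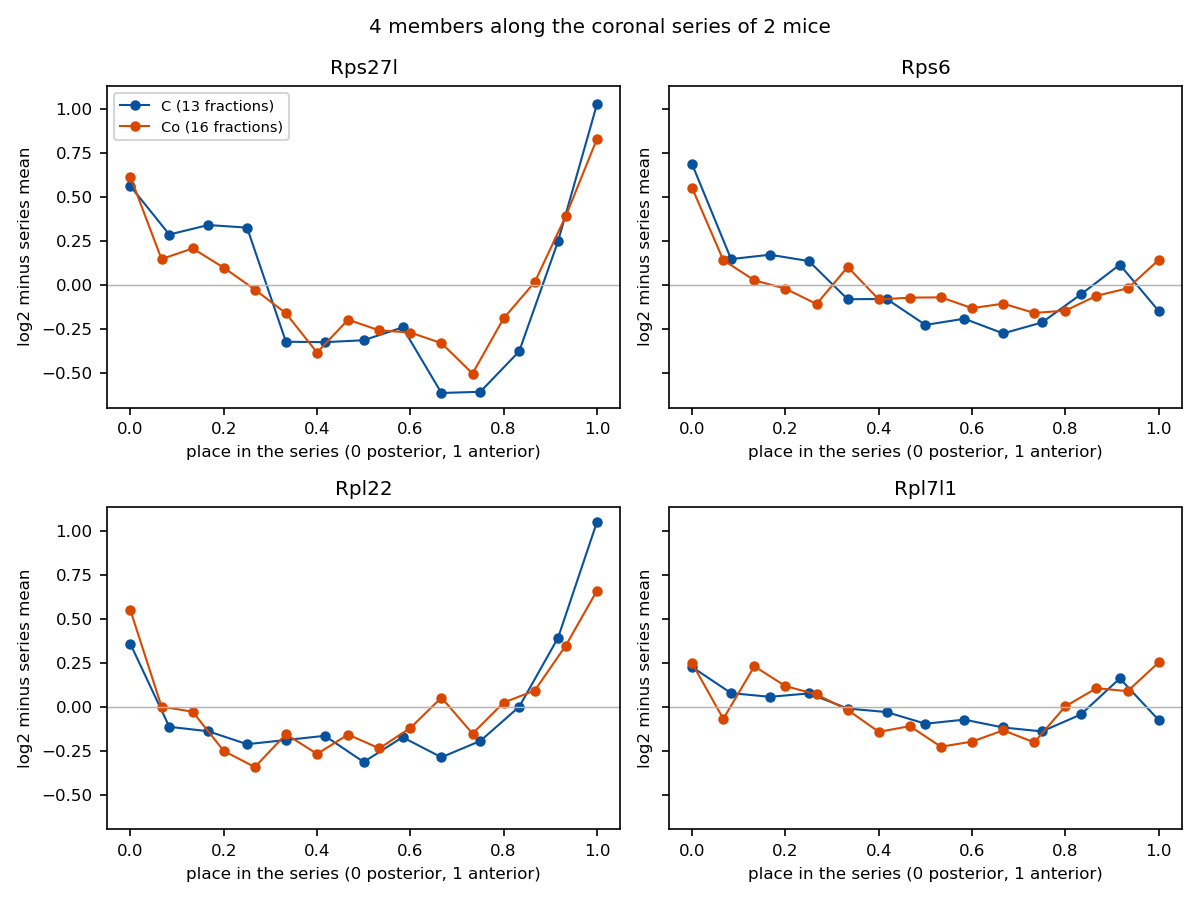
Rps27l, Rps6, Rpl22 and Rpl7l1 along the coronal series C (13 fractions) and Co (16), as log2 minus the series mean against the place in the series from posterior (0) to anterior (1). Rps27l is raised at both ends, Rps6 at the posterior end with 0.69 in C1, Rpl22 reaches 1.05 in C13, and Rpl7l1 stays between -0.23 and 0.25.

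In the paired fractions of the horizontal series the members were lower dorsally than ventrally, and the count depended on single arrays. Ho1, the dorsal end of Ho, was in no pair and so not in this comparison. Its member median was 0.75, above that of every ventral fraction. The median of the members was 0.11 in H1, -0.27 in Ho2, -0.17 in H2 and -0.21 in Ho3, and 0.01 in H5, -0.14 in Ho6, 0.28 in H6 and 0.38 in Ho7. Of 81 members 10 were lower dorsally and 0 higher (limma, adjusted p under 0.05), where 8.44% of all probes were lower and 5.77% higher, and the median difference was -0.27 beside 0.01 over all probes. With the mouse as a replicate block 36 were lower and 0 higher, beside 14.9% and 12.2% of all probes. Without the end fractions, which takes out H1, H6 and Ho7, 0 members passed by limma and 1 had an unadjusted p under 0.05, and 4 passed with the mouse as a replicate block. Leaving out 1 array gave 1 member without H2 or Ho7, 3 without Ho2 or Ho6, and 16 without H6.

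Rpl31, a large subunit protein at the exit of the nascent chain, had the largest dorsal difference among the members measured on all arrays. It stood at 0.10 in H1, -0.40 in Ho2, -0.36 in H2 and -0.30 in Ho3, and at 0.04, -0.05, 0.42 and 0.53 in H5, Ho6, H6 and Ho7. H1 overlapped the ventral values, and Ho1, in no pair, was at 0.73. The difference was -0.47 ± 0.10 (SE, limma adjusted p = 0.00118). Rps27l followed at -0.42 but did not pass (limma adjusted p = 0.113). Rps19bp1, at 0.05, was on the other side of 0.

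Between the paired outer and midline sagittal fractions little differed. So1, the left end of So with a member median of 0.62, was in no pair, while So10, the right end at 0.42, was among the outer fractions. Of 81 members 5 were higher in the outer sagittal fractions and 0 lower (limma, adjusted p under 0.05), where 9.09% of all probes were higher and 10.5% lower, and the median difference was 0.09 beside -0.00 over all probes. Scaled to the array median, or in the authors' table, 20 were higher, where the shares of all probes are not given here. Without the end fractions 0 passed and 3 had an unadjusted p under 0.05, and without So5 or So6 2 members passed. Rps2 ran from -0.21 (So3) through 0.13 to 0.50 (So10) in the 8 outer fractions and from -0.30 (So6) to -0.11 (S4) at the midline, with a difference of 0.32 ± 0.09 (limma adjusted p = 0.00938). Rpl12, of the ribosomal stalk base, differed by 0.31 ± 0.09 (limma adjusted p = 0.0137). The lowest values were those of Rps27l (-0.15 ± 0.13) and Rps6 (-0.12 ± 0.09), which did not pass.

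Between the paired fractions of the left and the right side, 0 members passed the threshold (limma), and 5 had an unadjusted p under 0.05, all lower on the left. The left end So1 (member median 0.62) was in no pair, while the right end So10 (0.42) was in the right group. Over all probes 0.0383% were higher and 0.0985% lower at the adjusted threshold, and the share at the unadjusted one is not given here. The values ranged from -0.22 (Rpl35a) to 0.12 (Rpl4) over the 80 members measured on all arrays, and Rpl7l1 stood at 0.02. Ordinary least squares gave 0 as well.

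Between Co and C and between Ho and H, the share of members that differed was near or below that of all probes. Only between So and S did it stand apart, with 56.8% of the members lower in So. Between Co and C, 26 members (32.1%) were higher in Co and 14 (17.3%) lower (limma, adjusted p under 0.05), where 26.8% of all probes were higher and 26.6% lower, and the median was 0.04. Between So and S, 1 was higher in So and 46 lower, where 12.0% of all probes were higher and 18.2% lower, with a median of -0.17 beside -0.02 over all probes. Between Ho and H, 1 was higher and 1 lower, where 3.77% and 1.58% of probes were, with a median of 0.13. Leaving out 1 array gave 0 to 4 members between Ho and H, with 0 without any 1 of H2 to H4 and Ho3 to Ho5, 1 without H5, H6, Ho6 or Ho7, and 4 without any 1 of S1, S9, So2 and So10. C and Co were scanned on separate days throughout and S and So on separate days but for S1, so that mouse and scan day cannot be told apart between Co and C. With the slide or the scan day as a fixed block 0 members passed between So and S. S1 was the only S array that shared a slide or a scan day with So arrays. Either block thus left the difference to S1 and its pair So2, and can decide little about it. Leaving out 1 array gave 29 to 52 members between So and S, with 29 to 31 without any 1 of S2 to S5, S7, So3 to So6 and So8.

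Rpl22l1 differed most between the coronal mice. Its level ran from 3.64 through a median of 3.87 to 4.64 in C and from 4.66 through 4.89 to 5.23 in Co, in log2 above the 75th percentile, without overlap. The difference at matched positions was 0.91 ± 0.08 (SE, limma adjusted p = 2.57e-10). Rpl13a (0.62 ± 0.07), Rpl10 (0.58 ± 0.06) and Rpl24 (0.51 ± 0.06) were also higher in Co. Rpsa was the lowest at -0.52 ± 0.06, running from 4.18 to 4.92 in C and from 3.58 to 4.47 in Co. Rpl4, whose protein lines the exit tunnel of the large subunit, was lower in Co than in C (-0.41 ± 0.05) and was the member higher in So than in S (0.44 ± 0.06).

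**Figure D5:**
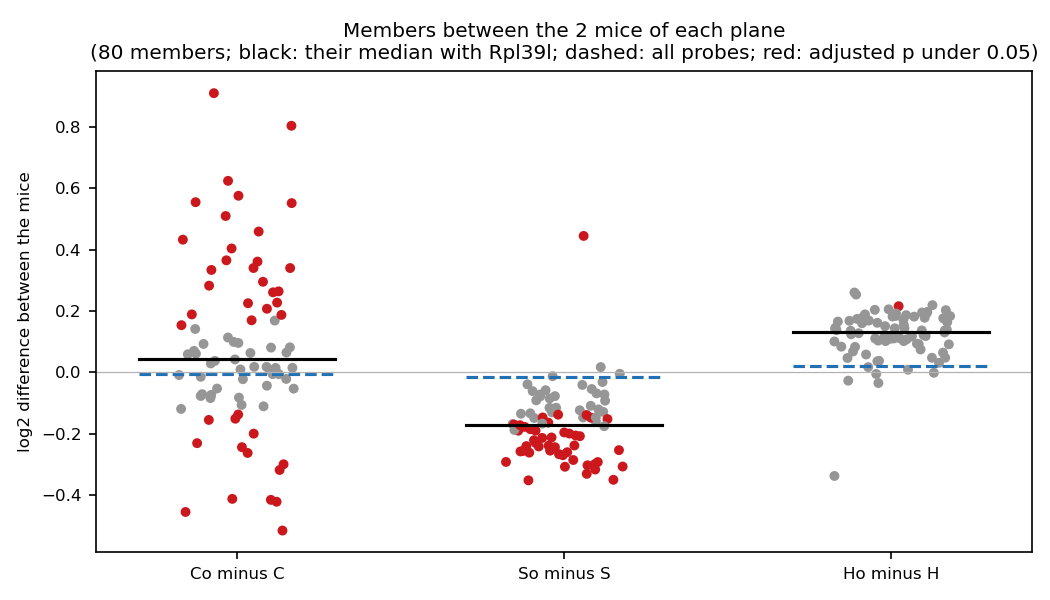
Difference between the 2 mice of each plane for the 80 members measured on all arrays (points), as log2 at matched positions, with red for an adjusted p under 0.05, a solid line for the median of the 81 members and a dashed line for that of all probes. The spread is widest for Co minus C, from -0.52 to 0.91, while nearly all members lie below 0 for So minus S.

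Other probes of the same genes were read beside these results. For 30 members there were 36 further detected probes, whose profiles over the 61 fractions had a median correlation of 0.91 with the probe used. In the end comparison 35 of the 36 differed in the same direction as the probe used and 34 were higher past the threshold. In the rostral comparison 34 had the same sign. Between Co and C only 22 had the same sign, and Rpl29, Rps3a1 and Rpl7a had probes on opposite sides (-0.15 against 0.71, -0.30 against 0.53 and -0.16 against 0.60). The 1 end exception was a further probe of Rps15a, at -0.31 where the probe used gave 0.59.

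Over the 61 fractions the 80 members measured on all arrays had a median pairwise correlation of 0.86, and 0.65 over the 49 inner fractions centred on their own mean. The points share mice, slides and the scaling of each array. Rpl3l (0.21), Rpl7l1 (0.51), Rpl30 (0.57) and Rpl4 (0.66) were least like the mean of the others. Among the 10 genes outside the members with the most similar profiles, of 11058 candidates, were Fau (0.97), Sprr2a1, Rplp2, Nme2, Atp5md, Mrpl52, Dnajc19, Gmfg and Cd52 (0.94). Fau and Rplp2 encode ribosomal proteins under other names, Mrpl52 a mitochondrial ribosomal protein, and Cd52 a surface protein of leukocytes.

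The rest of the translation machinery was followed through lists. The 6 further genes of the cytosolic ribosome, among them Rplp0, Rplp1 and Rack1, were all higher in the end fractions (0.35 to 0.51), and 5 of 6 were higher at the rostral end, Rplp1 (0.20 ± 0.11) not passing. Of 14 elongation factor and other TOP mRNAs, 11 were higher in the end fractions and 5 at the rostral end, with Tpt1 at 0.48 ± 0.08 and Eef1a1, the general elongation factor, at 0.27 ± 0.07 in the end fractions. Eef1a2, its counterpart in neurons, was lower, at -0.23 ± 0.08 (limma adjusted p = 0.0161). Eef2 (0.09 ± 0.06), Hnrnpa1 and Eif4b did not pass.

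Of 76 mitochondrial ribosomal protein genes, 59 were higher in the end fractions and 1, Mrps2, lower (-0.17), with a median of 0.20. At the rostral end 24 were higher and 5 lower. Of 23 measured ribosome biogenesis genes, 5 were higher in the end fractions, among them Fbl (0.18 ± 0.05) and Nop10 (0.36 ± 0.05), and 2 lower, Polr1a and Polr1b of RNA polymerase I (-0.18 ± 0.04 and -0.28 ± 0.07). At the rostral end 1 was higher, Fbl at 0.50, and 6 lower. Of 7 measured mTOR and S6 kinase genes Eif4ebp1, a repressor of cap-dependent translation, was higher in the end fractions (0.45 ± 0.11) and Rptor lower (-0.27 ± 0.06). The background of the end counts is 15.3% of all probes higher and 12.8% lower. That of the rostral counts is 18.4% higher and 20.4% lower.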

How the data were processed

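RNA of each fraction was hybridised to a 1-colour Agilent array. The deposited spot intensity was the processed signal of the scanner software, background-subtracted by the authors' extraction. Spots flagged as outliers were left out, spots of a probe averaged, and log2 intensity minus the 75th percentile of the array was analysed for 36573 probes of 41174 well above background on at least 1 array. The authors' normalized table holds the same signals divided by 1 constant per array and served as an alternative.

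Position was tested over 28 pairs of fractions with limma 3.58.1 (R 4.3.3), a moderated F test and contrasts in place of the study's analysis of variance, with Benjamini-Hochberg adjustment over all detected probes and a threshold of 0.05. Deviations from the pair means correlated within a mouse (median r = 0.28 over 258 pairs of arrays) and not between mice (-0.02 over 1254), so the mouse was also fitted as a replicate block. The comparison of end and inner fractions, its mouse and slide alternatives and the fits without end fractions were chosen after seeing the data. With 1 mouse per series, p-values measure the spread between fractions, and the number of arrays limits the precision.

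Values are named for the 8 largest and 3 smallest F, the 5 highest and lowest caudal and 2 highest and lowest other position differences, and a list of members with known roles. The members and lists were chosen with earlier results of these data known. In simulated data the end comparison recovered 29.5% of 200 probes changed by 0.3 and 61% of those changed by 0.6 on the log2 scale. The rostral comparison recovered 7.5% and 44%, and that of Co against C 42% and 68.5%, so changes of 0.3 were mostly missed in that setting. The rostral simulation changed 200 of 35984 probes, with noise independent between arrays. In the data 18.4% of all probes were higher at the rostral end and 20.4% lower. The adjusted threshold is stricter where fewer probes change, so these recoveries do not give the power in the data. Sequences are from RefSeq (GRCm38.p6), and 62 of 81 members matched a promoter window. Alternatives covered scaling, background, probe filters, gene summaries, pairing, slide, scan day and leaving out each array. Some genes are not reported here by name.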

Additional observations from a re-analysis of the deposited data

Results flagged for a closer look

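Among 144 sets of values of named members within a series, 5 held a fraction far from the others by Dixon's criterion, which chance alone meets in about 1 of 20 groups. Rpl29 stood at 0.88 in Ho1, where the other 6 fractions of the series lay between -0.23 and 0.13. Rps19bp1 stood at 0.37 in Ho1, with the others between -0.14 and 0.01. In S1, Rps27l stood at -0.52 (others -0.11 to 0.17), Rps19 at -0.35 (-0.08 to 0.18) and Rpl36al at -0.31 (-0.08 to 0.11). S1 shared its slide and its scan day with arrays of series So and with no other array of S.

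The end difference was larger in So than in S for 41 members by the limma interaction, with a median difference of 0.63 over the members. The labels number S1 as fraction 2, so it may not be the outermost fraction of that side.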

How the results depend on the processing

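Of the 48 members varying over the pairs, 27 passed at 0.01, 23 with fractions paired by their own numbers and 19 without end fractions, against 80 with the mouse as a replicate block and 78 with that block and no end fractions (41 to 52 without 1 array). The 22 caudal members became 41 scaled to the median and in the authors' table, 35 with the replicate block or the scan day, 43 with the block and no end fractions, 12 at 0.01 or with a random slide block, 10 with own numbers and 0 with a fixed slide block (17 to 27 without 1 array), under which Rps27a (-0.0829), Rpl3l (-0.137) and Rps12 (-0.193) changed sign. The 56 rostral members became 16 with the fixed slide block and 9 with own numbers (40 to 61). The 10 dorsal members became 36 with the replicate block, 42 with the scan day, 4 in the authors' table or with the block and no end fractions, 3 scaled to the median, 2 at 0.01, and 0 with own numbers, the fixed slide block or no end fractions (1 to 16). The 5 outer members became 20 scaled to the median and in the authors' table, 9 with the scan day, 3 with normexp, 2 at 0.01, and 0 with own numbers or no end fractions (2 to 5). The left and right sides gave 0 throughout. Between Co and C 40 members became 35 to 53 (40 to 44 without 1 array). The 47 between So and S became 26 with normexp, 25 at 0.01, 24 in the authors' table, 23 scaled to the median, 11 with a random slide block and 0 with the fixed slide block or the scan day (29 to 52). The 2 between Ho and H became 8 without end fractions, 4 with the scan day, 1 scaled to the median or in the authors' table, and 0 with normexp, at 0.01 or with a random slide block (0 to 4). The 79 end members ranged from 77 to 80 in all alternatives (79 to 80 without 1 array). The cause of these changes was not tested. Own numbers set Co12 and Co13 beside C12 and C13, so the rostral 9 is read at other positions. Under the fixed slide block Co5 was the only paired caudal fraction on a slide with non-caudal ones, so the caudal 0 says little about position. Between So and S the slide and scan day blocks rest on S1 and its pair So2, so the 0 there says little as well. Shares of all probes are not given for all of these alternatives. The slide block could not be estimated for Co against C, Ho against H, outer and left, nor the scan day for Co against C. Dim signal limits Rpl39l alone.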

Other observations

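In Ho5 a few members stood far below the rest, chosen here after their values were seen. Rpl30 was at -2.11, Rpl39 at -0.95, Rps27a at -0.73, Rpl22l1 at -0.69 and Rpl10 at -0.67, where the median of the members was -0.24. These were the lowest values of all 5 genes over the 61 fractions.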
